A study of Homo sapiens with 6 samples.

Results

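The hypoxia and glycolysis genes described here are 47 genes chosen by symbol, of 62703 genes in the count tables, and all 47 were found by Ensembl identifier and passed the filter on low counts. They comprise 8 genes for subunits of the hypoxia-inducible factors (HIF) and the proteins that sense oxygen for them, 20 genes of glucose uptake and glycolysis, 8 genes of pyruvate and lactate handling and pH control, 4 angiogenic genes and 7 other HIF targets. Messenger RNA was measured by bulk sequencing in MDA-MB-231, an established human triple-negative breast cancer cell line, with hairpin RNA against RNF20 (shRNF20, 3 libraries) or with a control hairpin (shControl, 3 libraries). RNF20 is a ubiquitin ligase that works with RNF40 and modifies histone H2B over active genes. The labels give no oxygen tension, medium, hairpin sequence or time after knockdown, and do not say whether cells were pools or clones or whether replicates were separate cultures. The p-values therefore measure only the spread between these libraries, which may be technical.

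When oxygen is present, the prolyl hydroxylases encoded by EGLN1, EGLN2 and EGLN3 mark HIF alpha subunits for the VHL ubiquitin ligase, which has them degraded. When oxygen is scarce the alpha subunits persist, pair with ARNT and bind a short DNA core in genes of glucose transport, glycolysis, lactate export, acid control and blood vessel growth. HIF alpha is controlled mainly at the protein level, which these data do not measure. Breast cancer cells of the basal type are known for high glycolysis also in the presence of oxygen.

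Counts assigned to genes were 21988826 to 28265573 in the shRNF20 libraries and 23786533 to 29685306 in the shControl libraries. RNF20 itself had 14.1, 12.2 and 11.1 CPM (read counts scaled to 1 common library size, with TMM factors) in shRNF20, against 57.8, 58.5 and 58.0 CPM in shControl. Markers of this mesenchymal line (VIM, CD44, EGFR, AXL, CAV1 and MSN) were at 264.5 CPM or more in the shRNF20 libraries and at 214.7 CPM or more in the shControl libraries. ESR1 stayed at or below 1.68 CPM and PGR at or below 0.213 CPM in every library. ESR1 was nevertheless higher in shRNF20 (log2 fold change 3.76, edgeR adjusted p = 6.92e-04). The further markers ERBB2, EPCAM and CDH1 were detected in every library. ERBB2 was at 138.5 to 141.1 CPM in shRNF20 and 91.31 to 107.5 CPM in shControl. EPCAM was at 20.62 to 21.38 and 11.58 to 15.98 CPM, and CDH1 at 6.492 to 7.657 and 13.31 to 26.21 CPM, in the same order. The 4 fibroblast markers summed to 26.5 to 29.6 CPM in shRNF20 and 3.19 to 8.80 CPM in shControl, the 4 endothelial markers to 7.97 to 8.89 and 12.2 to 18.0 CPM, the 6 leukocyte markers to 4.27 to 6.13 and 3.96 to 5.05 CPM, and the 3 erythroid markers to 0.316 to 0.5002 and 0.128 to 1.145 CPM. HBA1 was at 0 in all 6 libraries. Mitochondrially encoded RNA was 4.91% to 6.22% of gene counts in shRNF20 and 0.93% to 1.38% in shControl, and reads outside annotated exons were 5.05% to 5.49% of all reads in shRNF20 and 2.39% to 2.58% in shControl. The part of these differences in the results below was not tested, except that leaving out mitochondrial genes gave the same counts of members higher and lower. The members varied less among the shRNF20 libraries, with a median coefficient of variation of 2.97%, than among the shControl libraries, at 13.7%. Pairs of shRNF20 libraries still differed beyond sampling noise, with chi-square values of 2.04 to 6.84 per degree of freedom (31.3 to 51.7 between shControl libraries).

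Knockdown of RNF20 went with a mixed pattern in these genes: 13 of the 47 rose and 16 fell (edgeR quasi-likelihood test, Benjamini-Hochberg adjusted p under 0.05 over all genes tested), which is 61.7% of the members. Over all 15797 genes tested the same rule called 58.4%, with 28.7% higher and 29.8% lower, so the share of members called was near the background. In 31 members (66.0%) the shRNF20 and shControl libraries did not overlap in CPM, against 66.3% of all genes tested. With the 3 closely similar shRNF20 libraries added up as 1 sample, 5 members rose and 8 fell. The 16 calls lost in that way were those of ANGPTL4, ARNT, BHLHE40, BNIP3L, ENO1, EPAS1, LDHB, NDRG1, P4HA1, PFKFB2, PFKFB4, PFKM, PFKP, PGK1, PKM and VHL. The median log2 fold change was -0.11 for the members and -0.01 for all genes. VEGFA, the hypoxia-induced vascular growth factor, CA12, PDK3, HK2 and SLC2A1 were among the members that fell, while the vascular peptides ADM and VEGFC, the lipase inhibitor ANGPTL4, the transporter SLC2A3 and the pyruvate kinase PKM rose. In bulk RNA, fewer cells with a transcript and less transcript per cell cannot be told apart.

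**Figure D1:**
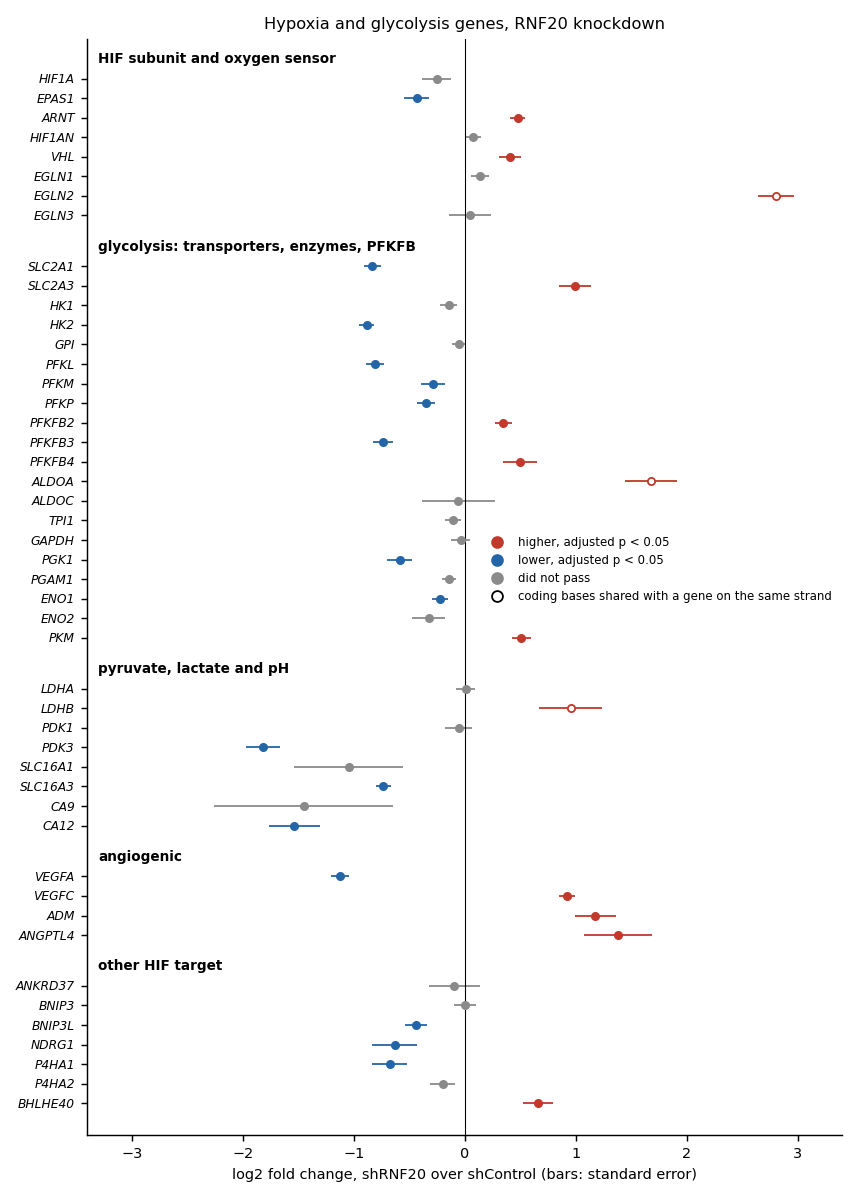
Log2 fold change of each of the 47 members, shRNF20 over shControl (x axis), grouped by role (y axis), with bars for the standard error over 3 libraries a group. Of the 47 points 13 are called higher and 16 lower, and the 3 open points (ALDOA, EGLN2 and LDHB) are genes whose coding bases are shared with another gene on the same strand.

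For 3 of the 13 members that rose the count rests mostly on exon bases outside the coding sequence. In GENCODE 29 another gene on the same strand covers 93.8% of the coding bases of ALDOA (chromosome 16, 30064164 to 30070457), 93.4% of those of EGLN2 (chromosome 19, 40798996 to 40808433) and 93.5% of those of LDHB (chromosome 12, 21635342 to 21757857). Of all their annotated exon bases 42.3%, 30.6% and 33.4% are shared in that order, and the authors' counting leaves reads shared by overlapping genes unassigned. ALDOA, the main muscle-type aldolase, had only 143, 91 and 138 reads in shRNF20 and 39, 48 and 31 in shControl. EGLN2 had 395, 297 and 362 reads in shRNF20 and 61, 44 and 50 in shControl, and LDHB, the heart-type lactate dehydrogenase subunit, 72, 50 and 75 against 31, 28 and 43. The log2 fold changes of 1.67 (SE 0.23) for ALDOA, 2.80 (SE 0.16) for EGLN2 and 0.95 (SE 0.28) for LDHB describe the unshared bases only (edgeR adjusted p = 4.32e-04, 9.30e-06 and 0.0181). The LDHB call was lost without shRNF20 replicate 1 (log2 fold change 0.88), shRNF20 replicate 3 (0.92) or shControl replicate 1 (0.78). Outside these 3 genes, 10 of 44 members rose and 16 fell.

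The start regions of members with large changes are shown because HIF acts through a short core there. The core is spelled ACGTG or GCGTG and read as CACGT or CACGC where it lies on the other strand. The sequences are the 250 bases before and 50 after each RefSeq start site (GRCh38.p14), printed 5′ to 3′ in the direction of the gene, with the core in capitals. Shown are the 3 members that rose most and the 3 that fell most among those called, where the average log2 CPM was 3 or above and RefSeq gave a promoter.
ANGPTL4 (GRCh38.p14 chr19:8363905-8364204, plus strand): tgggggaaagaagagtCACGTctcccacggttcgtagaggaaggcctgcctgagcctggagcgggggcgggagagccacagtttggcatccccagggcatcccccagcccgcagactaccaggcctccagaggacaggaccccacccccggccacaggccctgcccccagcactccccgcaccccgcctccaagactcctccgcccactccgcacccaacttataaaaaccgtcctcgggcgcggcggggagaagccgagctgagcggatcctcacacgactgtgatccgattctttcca
ADM (GRCh38.p14 chr11:10304823-10305122, plus strand): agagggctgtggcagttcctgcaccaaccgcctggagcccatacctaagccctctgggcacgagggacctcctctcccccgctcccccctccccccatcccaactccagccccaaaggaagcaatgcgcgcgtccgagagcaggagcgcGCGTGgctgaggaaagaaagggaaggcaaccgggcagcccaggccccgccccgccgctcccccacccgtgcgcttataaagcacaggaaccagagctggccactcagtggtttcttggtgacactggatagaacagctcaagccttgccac
VEGFC (GRCh38.p14 chr4:176792873-176793172, minus strand): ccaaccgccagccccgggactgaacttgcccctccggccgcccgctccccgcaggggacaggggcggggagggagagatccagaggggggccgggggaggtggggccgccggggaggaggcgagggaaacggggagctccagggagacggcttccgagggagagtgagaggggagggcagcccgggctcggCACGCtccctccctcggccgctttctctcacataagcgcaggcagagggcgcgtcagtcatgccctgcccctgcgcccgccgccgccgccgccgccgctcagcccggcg
PDK3 (GRCh38.p14 chrX:24465036-24465335, plus strand): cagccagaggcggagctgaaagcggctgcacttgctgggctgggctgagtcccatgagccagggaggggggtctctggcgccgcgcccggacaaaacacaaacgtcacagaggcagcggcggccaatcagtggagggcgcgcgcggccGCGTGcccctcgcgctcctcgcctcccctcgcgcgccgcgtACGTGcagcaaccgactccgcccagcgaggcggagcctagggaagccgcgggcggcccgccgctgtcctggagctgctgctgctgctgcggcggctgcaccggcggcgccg
CA12 (GRCh38.p14 chr15:63381797-63382096, minus strand): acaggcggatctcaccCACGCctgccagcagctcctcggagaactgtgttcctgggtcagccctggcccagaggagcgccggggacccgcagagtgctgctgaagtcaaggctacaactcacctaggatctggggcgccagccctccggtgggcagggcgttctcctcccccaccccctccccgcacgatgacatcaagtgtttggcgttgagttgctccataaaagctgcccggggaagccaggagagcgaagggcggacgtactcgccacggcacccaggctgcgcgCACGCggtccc
HK2 (GRCh38.p14 chr2:74833877-74834176, plus strand): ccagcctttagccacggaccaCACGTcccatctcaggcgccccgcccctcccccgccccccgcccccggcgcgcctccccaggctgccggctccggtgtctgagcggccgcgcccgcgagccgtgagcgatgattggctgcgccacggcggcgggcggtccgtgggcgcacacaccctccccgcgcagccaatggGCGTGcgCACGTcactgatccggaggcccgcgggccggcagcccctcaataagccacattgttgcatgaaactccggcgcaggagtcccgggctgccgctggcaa
The 3 genes that rose held 1 core each, starting 234 bases before the start site in ANGPTL4, 101 before it in ADM and 59 before it in VEGFC. Among the genes that fell, PDK3 and CA12 held 2 cores and HK2 held 3, of which a pair lies 55 and 48 bases before the HK2 start site. A promoter was found for 40 of the 47 members, and 29 of them (72.5%) held at least 1 core, against 62.4% of 11278 promoters of genes tested and 48.4% of all 27305 promoters of this length. By call, it was in 9 of 10 promoters of members that rose, 10 of 13 of members that fell and 10 of 17 of members that did not pass. The members' promoters were richer in G and C (median 69.7%) than those of genes tested (65.3%), and the core itself holds 3 or 4 such bases. The palindrome CACGTG, which contains the core on both strands, was in 7 of the 40 promoters (17.5%), against 9.9% for genes tested. These are matches of letters and not sites shown to be bound.

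Among the HIF subunit genes EPAS1 fell and ARNT rose, while HIF1A did not pass. HIF1A, the general oxygen-regulated subunit, had 555, 543 and 572 CPM in shRNF20, against 520.5, 720 and 752 CPM in shControl. The groups overlapped because shControl replicate 1 was low, and HIF1A did not pass (log2 fold change -0.25, SE 0.13, edgeR adjusted p = 0.119). Without shControl replicate 1 it passed as lower (-0.42, adjusted p = 6.96e-04). EPAS1, which encodes HIF-2 alpha, had 164, 171 and 174 CPM in shRNF20, against 212, 273 and 202 CPM in shControl. Every shRNF20 library lay below every shControl library, and EPAS1 fell (-0.44, SE 0.11, edgeR adjusted p = 0.00986). ARNT, the shared partner (HIF-1 beta), had 91.7, 89.8 and 90.9 CPM in shRNF20, against 65.1, 68.5 and 62.5 CPM in shControl, and rose (0.47, SE 0.07, edgeR adjusted p = 5.21e-04). Per kilobase of exon, HIF1A made up 82.3% ± 0.46 of the summed level of HIF1A and EPAS1 in shRNF20 and 80.2% ± 3.41 in shControl (SD, n = 3 each). The 2 strand columns together held 1.54 and 1.56 times the HIF1A reads counted without strand, in the same order, and 1.0 times those of EPAS1. These shares were not computed on the strand sums and may be too low for HIF1A.

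VHL, the part of the ligase that recognises hydroxylated HIF alpha, had 87.1, 93.3 and 88.7 CPM in shRNF20, against 60.8, 78.2 and 63.9 CPM in shControl. The groups did not overlap, and VHL rose (0.41, SE 0.10, edgeR adjusted p = 0.00833), a call that was lost with the shRNF20 libraries added up as 1 sample. The 4 other subunits of that ligase, picked out of the list of HIF partners after their values were seen, were higher as well: ELOB (0.41), ELOC (0.44), the scaffold CUL2 (0.45) and the RING protein RBX1 (0.56), with edgeR adjusted p-values of 0.00230, 0.00276, 0.00111 and 6.86e-04. RBX1, for instance, had 64.1, 63.1 and 67.7 CPM in shRNF20, against 45.9, 40.1 and 46.6 CPM in shControl. Of the 17 tested genes of that list 6 rose and 5 fell, beside 28.7% higher and 29.8% lower over all genes. The other rises were SIAH2 (0.67), a ligase known to act on the prolyl hydroxylases, and RWDD3 (1.48), a factor of SUMO conjugation at under 3 CPM. Its 5 falls were HSP90AB1 (-0.77), HSP90AA1 (-0.59), which encode the chaperone of HIF alpha, USP20 (-0.77), ARNT2 (-0.72) and the coactivator EP300 (-0.26). With the shRNF20 libraries added up as 1 sample, 1 gene of that list rose and 2 fell at the adjusted threshold, and 6 rose and 4 fell at an unadjusted p under 0.05. The oxygen sensors EGLN1 (0.14), EGLN3 (0.05) and HIF1AN (0.07), the asparagine hydroxylase of HIF alpha, did not pass. EGLN1 was at 41.40, 45.6 and 45.6 CPM in shRNF20, against 39.1, 40.1 and 41.35 CPM in shControl, so that its groups did not overlap by a narrow gap. For HIF1A, VHL and HIF1AN the 2 strand columns together held 1.54 to 1.77 times the reads counted without strand in shRNF20 and 1.56 to 1.71 times in shControl. HIF1AN passed on those sums (0.28, edgeR adjusted p = 0.00592). It overlaps NDUFB8 on the other strand, whose counts were 117, 95 and 96 in shRNF20 and 12, 12 and 18 in shControl. The part of NDUFB8 in the HIF1AN value was not tested.

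**Figure D2:**
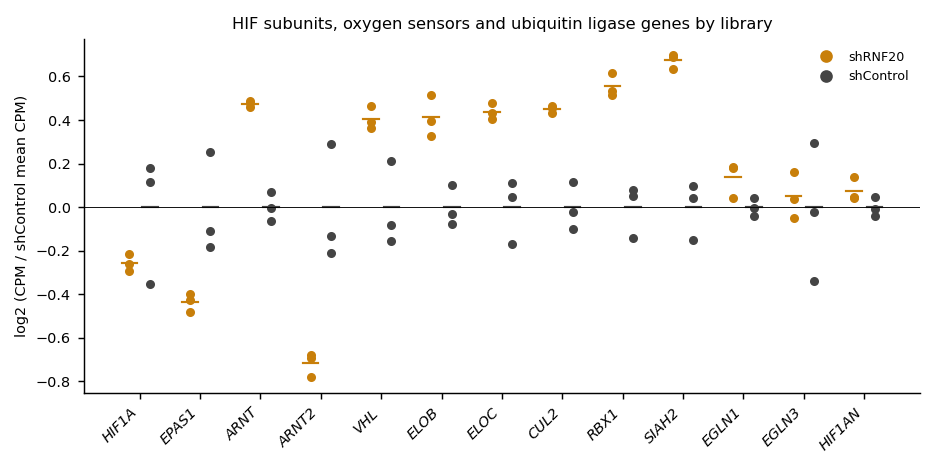
Log2 of CPM over the mean CPM of shControl (y axis) for HIF subunits, VHL ligase subunits, SIAH2 and oxygen sensors (x axis), with a point per library, a line at each group mean and shRNF20 left of shControl. For VHL, ELOB, ELOC, CUL2 and RBX1 all 3 shRNF20 points lie above all 3 shControl points, and for HIF1A the groups overlap. ELOB, ELOC, CUL2 and RBX1 were picked after their values were seen, so the lack of overlap in them is no separate result. Groups do not overlap in 66.3% of all genes tested, in either direction.

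Glucose entry and its trapping by hexokinase had less RNA for the main transporter and for the inducible hexokinase, and more for a second transporter. SLC2A1, which encodes the transporter GLUT1 (chromosome 1, 42925375 to 42959176), had 507.5, 523 and 520.4 CPM in shRNF20, against 907, 852 and 1004 CPM in shControl. It fell with no overlap between groups (-0.83, SE 0.08, edgeR adjusted p = 5.67e-05). SLC2A3, which encodes the high-affinity transporter GLUT3 (chromosome 12, 7919230 to 7936275), went the other way, with 124.6, 123.7 and 124.5 CPM in shRNF20, against 53.9, 80.0 and 53.5 CPM in shControl (0.99, SE 0.15, edgeR adjusted p = 6.04e-04). Per kilobase of exon, counted over all annotated exons of a gene and so an upper limit of its transcript length, SLC2A3 supplied 15.6% ± 0.25 of the summed level of both transporters in shRNF20 and 5.0% ± 1.5 in shControl, while that sum was 129.6 ± 1.69 and 205 ± 14.4 CPM per kb (SD, n = 3 each). HK2, the inducible hexokinase bound to mitochondria (chromosome 2, 74833981 to 74893359), had 68.6, 69.1 and 69.8 CPM in shRNF20, against 122, 129.8 and 130.9 CPM in shControl. It fell (-0.88, SE 0.07, edgeR adjusted p = 2.27e-05). Per kb, its share of the summed RNA of HK1 and HK2 was 16.2% ± 0.08 in shRNF20 and 24.5% ± 1.49 in shControl. HKDC1, a further hexokinase that is not a member, lies outside that sum. Its level was 26.7 CPM per kb in shRNF20 and 25.2 in shControl, and HKDC1 did not pass (0.08). HK1, the constitutive form, did not pass (-0.14, adjusted p = 0.137), although its libraries did not overlap. It passed without shControl replicate 2 (-0.22, adjusted p = 0.0230).

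The committed step of glycolysis was lower across its isoforms, and the enzymes that set its activator changed in make-up. PFKL, the liver-type phosphofructokinase, had 81.5, 87.1 and 80.6 CPM in shRNF20, against 160.5, 138.9 and 136.7 CPM in shControl (-0.81, SE 0.08, edgeR adjusted p = 9.28e-05). PFKP, the platelet type and the most abundant of the 3, fell as well (-0.35, SE 0.08, edgeR adjusted p = 0.00641). PFKM, the muscle type, fell (-0.29, edgeR adjusted p = 0.0472), but missed the threshold without shControl replicate 3 (-0.17) or without shRNF20 replicates 1, 2 or 3 (-0.28, -0.32 and -0.30), and with RLE (adjusted p = 0.0529) or upper quartile scaling (0.0731). The summed level of the 3 isoforms was 116.0 ± 4.11 CPM per kb in shRNF20 and 151 ± 12.1 CPM per kb in shControl. The PFKFB enzymes make and break fructose 2,6-bisphosphate, the activator of phosphofructokinase. PFKFB3, the form with the strongest kinase activity, had 90.9, 93.7 and 84.1 CPM in shRNF20, against 135, 147 and 166 CPM in shControl, and fell (-0.74, SE 0.09, edgeR adjusted p = 2.24e-04). PFKFB2 (0.35, edgeR adjusted p = 0.00413) and PFKFB4 (0.50, edgeR adjusted p = 0.0233) rose. PFKFB4 missed the threshold without shControl replicate 1 (0.34) or 3 (0.43) and without shRNF20 replicates 1, 2 or 3 (0.48, 0.46 and 0.51). PFKFB2 overlaps YOD1 on the other strand, whose counts were 4517, 3661 and 4796 in shRNF20 and 1267, 1198 and 916 in shControl. With both strand columns added the PFKFB2 value was 0.83, and the part of YOD1 in it was not tested. PFKFB3 made up 52.3% ± 0.95 of PFKFB RNA per kb in shRNF20 and 71.3% ± 3.28 in shControl (SD, n = 3 each).

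**Figure D3:**
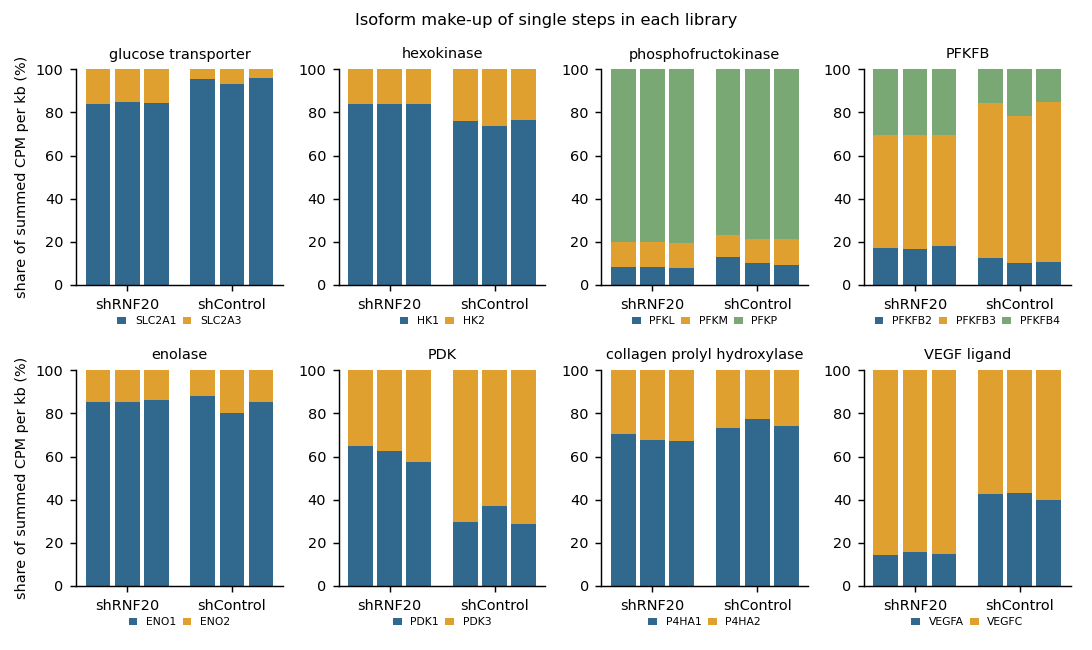
Share of each isoform in the summed CPM per kb of the members of its step (y axis, percent), with a bar per library, shRNF20 left of shControl. HKDC1, PDK2, PDK4 and VEGFB are not members and lie outside these sums. Lengths count all annotated exons of a gene, so the size of each share depends on them. SLC2A3, HK1, PFKFB4, PDK1, P4HA2 and VEGFC held larger shares in every shRNF20 library than in any shControl library, and the enolase shares overlapped.

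In the later steps most enzymes did not pass, and the exceptions went both ways. GAPDH (-0.04), TPI1 (-0.11), PGAM1 (-0.14) and ALDOC (-0.06) did not pass, nor did GPI (-0.05), the isomerase of an earlier step. TPI1 passed without shControl replicate 1 (-0.18), and PGAM1 without shControl replicate 2 (-0.19). PGK1, which makes the first ATP of the pathway (chromosome X, 77910739 to 78129296), had 408, 402 and 408 CPM in shRNF20, against 720.1, 588 and 519 CPM in shControl. It fell (-0.59, SE 0.11, edgeR adjusted p = 0.00225), and shControl replicate 1 was the highest library. ENO1, the main enolase, fell slightly (-0.23, SE 0.07, edgeR adjusted p = 0.0284). The ENO1 call was lost without shRNF20 replicates 1, 2 or 3 (-0.22, -0.24 and -0.24) or shControl replicate 3 (-0.19), and with both strand columns added (-0.20). ENO2, the neuronal enolase, did not pass (-0.33, adjusted p = 0.0892), with shControl replicates at 296.5, 474 and 381 CPM, but passed without shControl replicate 1 (-0.50). PKM, the pyruvate kinase of the last step (chromosome 15, 72199029 to 72231822), had 2907, 2945 and 3040 CPM in shRNF20, against 2249, 1849 and 2150 CPM in shControl, and rose (0.51, SE 0.09, edgeR adjusted p = 0.00116). Gene counts do not separate its M1 and M2 splice forms. Per kb the highest levels in shRNF20 were those of GAPDH (693), ENO1 (422), PKM (346) and TPI1 (254 CPM per kb), and the same 4 genes stood at 712, 494, 243 and 274 CPM per kb in shControl. ALDOA cannot be placed in that order, because 93.8% of its coding bases are shared and its count covers unshared bases only. GAPDH has 62 pseudogenes named after it in GENCODE 29 and PGAM1 has 13, and multimapping reads are left out of gene counts. The 2 strand columns together held 2.09 times the GAPDH reads counted without strand in shRNF20 and in shControl, and gave a log2 fold change of -0.01.

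**Figure D4:**
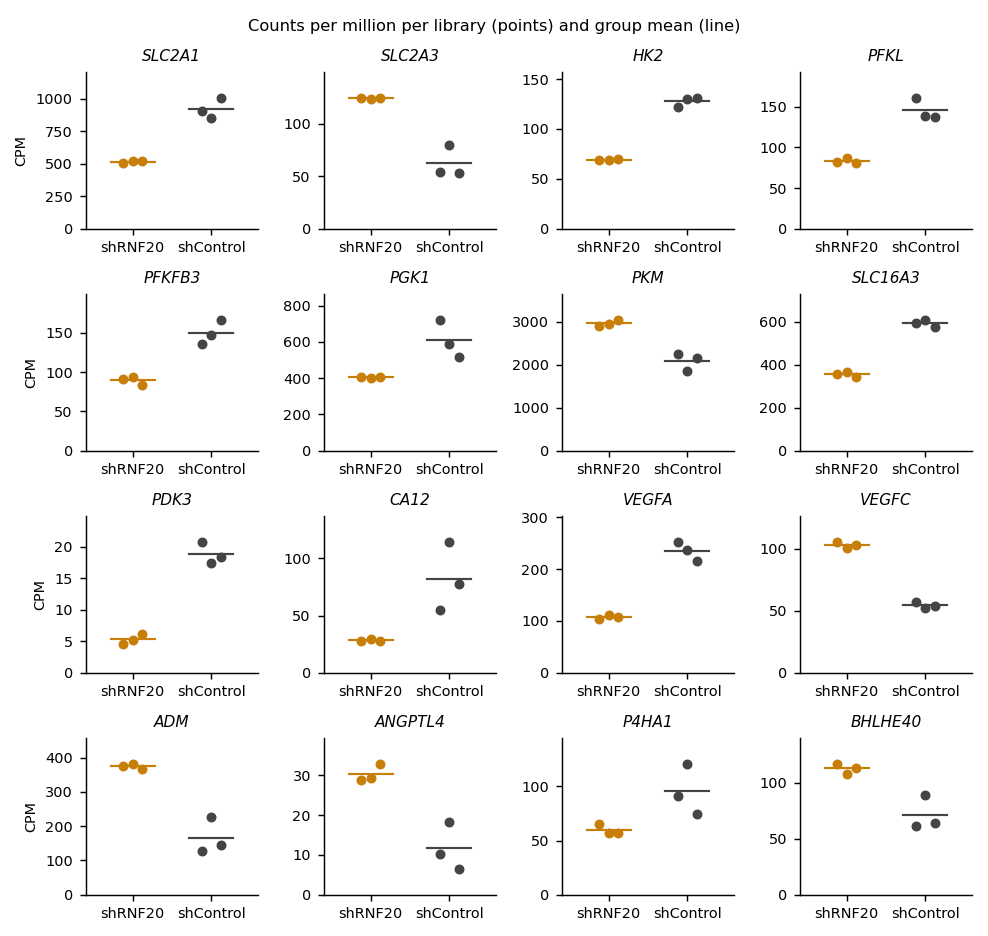
CPM in each library (points) and the group mean (line), shRNF20 left of shControl, for 16 of the 20 members past the threshold with a log2 fold change of at least 0.5 in size. In all 16 panels the groups do not overlap, which also holds for 66.3% of all genes tested. The panels were picked among called members, so the lack of overlap in them is no separate result. The other 4 of the 20 are ALDOA, EGLN2, LDHB and NDRG1, and the groups of NDRG1 overlap.

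Members of the pyruvate, lactate and pH group were lower where they passed, apart from the LDHB count. LDHA, the lactate-forming subunit, had 1433, 1404 and 1358 CPM in shRNF20, against 1545, 1312 and 1323 CPM in shControl, and did not pass (0.01, SE 0.08). SLC16A3 encodes the lactate exporter MCT4 (chromosome 17, 82228397 to 82261129), and it made up 99.5% ± 0.01 of the RNA of both monocarboxylate transporters per kb in shRNF20 and 99.4% ± 0.49 in shControl. SLC16A3 had 357, 366 and 345 CPM in shRNF20, against 592, 607.5 and 576 CPM in shControl, and fell (-0.73, SE 0.06, edgeR adjusted p = 4.29e-05). SLC16A1 (MCT1) was at 1.08, 1.09 and 1.05 CPM in shRNF20 and 1.59, 0.987 and 4.13 CPM in shControl and did not pass, with a log2 fold change of -1.05. It passed without shControl replicate 2 (-1.42), and was at -0.28 (adjusted p = 0.476) without shControl replicate 3. Pyruvate dehydrogenase kinases hold pyruvate out of the mitochondrial cycle. PDK3 (chromosome X, 24465221 to 24541862) had 4.58, 5.13 and 6.22 CPM in shRNF20, against 20.7, 17.3 and 18.3 CPM in shControl, the largest fall among the members that passed (-1.82, SE 0.15, edgeR adjusted p = 3.61e-05). PDK1 did not pass (-0.06). Per kb, the share of PDK3 in the summed RNA of PDK1 and PDK3 was 38.5% ± 3.79 in shRNF20 and 68.2% ± 4.58 in shControl. These shares depend on the lengths used, 14.883 kb of annotated exons for PDK1 and 4.951 kb for PDK3. In CPM, PDK1 averaged 25.3 in shRNF20 and 26.3 in shControl, above PDK3 in both. The kinases PDK2 and PDK4 are not members, lie outside the sum of PDK1 and PDK3 and did not pass. PDK2 was at 3.49 CPM per kb in shRNF20 and 3.50 in shControl, and PDK4 at 1.935 and 2.27. Carbonic anhydrases at the cell surface turn carbon dioxide and water into bicarbonate and protons. CA12 (chromosome 15, 63321378 to 63382161) had 27.9, 29.3 and 27.8 CPM in shRNF20, against 54.6, 114 and 77.5 CPM in shControl, and fell (-1.54, SE 0.23, edgeR adjusted p = 6.23e-04). CA9, a classical marker of hypoxic tumour, was barely detected, with 17, 13 and 14 reads in shRNF20 and 52, 73 and 2 in shControl, and did not pass (-1.45, adjusted p = 0.152). Without shControl replicate 2 it was at -0.75 (adjusted p = 0.480). Without shControl replicate 3 it passed (-2.001, adjusted p = 0.00231), and it did so with both strand columns added (-2.19). ARHGEF39 on the other strand covers 38.5% of the CA9 exon bases in GENCODE 29.

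Of the 4 angiogenic members 3 rose and 1 fell, beside 58.4% of all genes called, and with the shRNF20 libraries added up as 1 sample 2 rose and 1 fell, the ANGPTL4 call being lost. VEGFA, the main growth factor of blood vessel endothelium (chromosome 6, 43770184 to 43786487), had 104.0, 111 and 108 CPM in shRNF20, against 252, 236 and 216 CPM in shControl. Every shRNF20 library lay below every shControl library, and VEGFA fell (-1.12, SE 0.08, edgeR adjusted p = 1.73e-05). VEGFC, the growth factor of lymphatic vessels (chromosome 4, 176683538 to 176792727), had 105.5, 101.0 and 103.5 CPM in shRNF20, against 57.0, 52.5 and 54.3 CPM in shControl, and rose (0.92, SE 0.07, edgeR adjusted p = 2.36e-05). Per kb, VEGFC made up 85.1% ± 0.67 of the summed RNA of VEGFA and VEGFC in shRNF20 and 58.1% ± 1.6 in shControl (SD, n = 3 each). The sum of these ligands was 50.2 ± 0.71 CPM per kb in shRNF20 and 38.8 ± 1.94 in shControl. That sum and the shares depend on the lengths used, 14.431 kb of annotated exons for VEGFA and 2.42 kb for VEGFC. In CPM, VEGFA averaged 108 and VEGFC 103 in shRNF20, against 235 and 54.6 in shControl. Added up without division by length, these ligands were lower in shRNF20. VEGFB, which is not a member, lies outside these sums. It was at 30.5 CPM per kb in shRNF20 and 39.9 in shControl. ADM, which encodes the vasodilator adrenomedullin (chromosome 11, 10304680 to 10307397), had 375, 381 and 367 CPM in shRNF20, against 128, 226 and 144 CPM in shControl (1.18, SE 0.19, edgeR adjusted p = 8.56e-04). ANGPTL4, a secreted inhibitor of lipoprotein lipase (chromosome 19, 8363289 to 8374373), had 28.9, 29.4 and 32.9 CPM in shRNF20, against 10.2, 18.3 and 6.52 CPM in shControl (1.38, SE 0.31, edgeR adjusted p = 0.00459). Both rose without overlap, and shControl replicate 2 was the highest control for both.

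**Figure D5:**
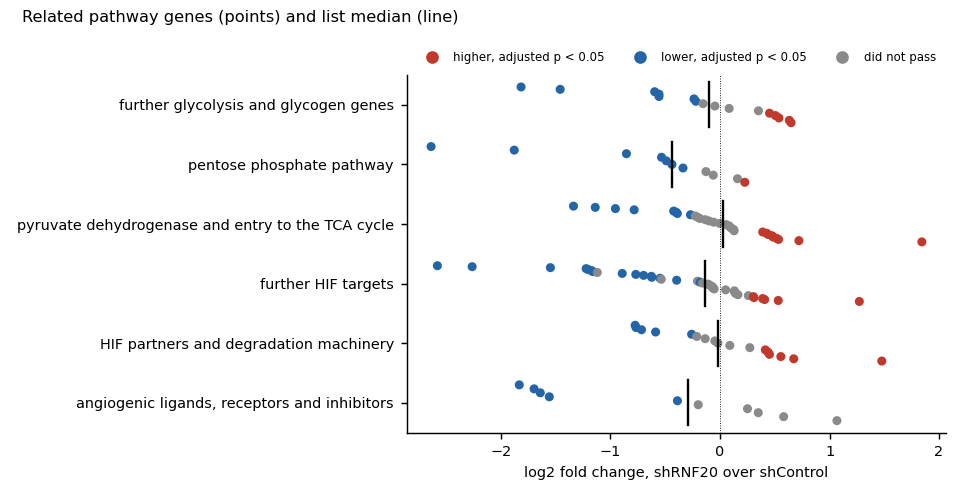
Log2 fold change, shRNF20 over shControl (x axis), of tested genes in 6 related lists (y axis); points are genes coloured by call and the line is the list median. The pentose phosphate genes lie mostly left of 0, with a median of -0.44, and no angiogenic gene of the last list is called higher.

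Among the 7 other HIF targets P4HA1, NDRG1 and BNIP3L fell and BHLHE40 rose, and none of these 4 calls held with the shRNF20 libraries added up as 1 sample. P4HA1, the catalytic subunit of collagen prolyl hydroxylase, had 65.1, 56.8 and 56.8 CPM in shRNF20, against 90.7, 120.6 and 74.7 CPM in shControl, and fell (-0.68, SE 0.16, edgeR adjusted p = 0.00625). P4HA2 did not pass (-0.20), but did without shControl replicate 3 (-0.33). BHLHE40, a hypoxia-induced repressor of the clock (chromosome 3, 4979116 to 4985323), had 117, 108 and 113 CPM in shRNF20, against 61.6, 89.3 and 63.8 CPM in shControl, and rose (0.66, SE 0.14, edgeR adjusted p = 0.00334). NDRG1, a stress and differentiation gene, had 81.1, 84.5 and 76.1 CPM in shRNF20, against 140.8, 153 and 80.6 CPM in shControl. It was the 1 called member whose groups overlapped, since shControl replicate 3 lay among the shRNF20 libraries (-0.63, SE 0.20, edgeR adjusted p = 0.0263). That call was lost without shControl replicate 1 (-0.56) or 2 (-0.48) and without shRNF20 replicates 1, 2 or 3 (-0.65, -0.68 and -0.61). BNIP3L, a receptor for mitophagy, fell (-0.44, SE 0.10, edgeR adjusted p = 0.00495), with 96.7, 96.1 and 94.7 CPM in shRNF20 and 129, 149 and 113 CPM in shControl. Its relative BNIP3 averaged 258 ± 9.10 CPM in shRNF20 and 258 ± 34.6 CPM in shControl (SD, n = 3 each) and did not pass, nor did ANKRD37 (-0.10), a small HIF target at about 2 CPM.

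Set side by side, 5 of the 20 glycolysis members rose and 8 fell (median log2 fold change -0.14), 1 of the 8 pyruvate, lactate and pH members rose and 3 fell (-0.89), 3 of the 8 HIF subunit and sensor members rose and 1 fell (0.11), 3 of the 4 angiogenic members rose and 1 fell (1.05), and 1 of the 7 other HIF targets rose and 3 fell (-0.20). The 3 genes with shared coding bases count among the rises of the glycolysis, pyruvate and sensor members. Over all genes tested 28.7% were higher and 29.8% lower, with a median of -0.01. Without shControl replicate 3 the median was -0.52 for the pyruvate, lactate and pH members and -0.33 for the other HIF targets. The median of the pyruvate, lactate and pH members includes SLC16A1 and CA9, which had few reads and did not pass. It was -0.72 over 7 members with a CPM of at least 1 in 3 libraries, which left out CA9. These counts describe small groups, and no difference between the groups was tested.

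Genes next to the pathway were also examined, and their counts stand beside 28.7% higher and 29.8% lower over all genes. Of 11 pentose phosphate genes 7 fell and TKT rose (0.23), with a median of -0.44. H6PD, the hexose 6-phosphate dehydrogenase of the endoplasmic reticulum, had 21.6, 23.4 and 21.1 CPM in shRNF20, against 136, 154.5 and 120.3 CPM in shControl (-2.64, SE 0.11, edgeR adjusted p = 3.71e-06). PGLS, the lactonase of the pathway, fell too (-1.88, SE 0.11, edgeR adjusted p = 1.10e-05), and so did PGD (-0.85), a cytosolic dehydrogenase. With the shRNF20 libraries added up as 1 sample, 3 pentose phosphate genes fell. Of 16 tested genes of further glycolysis and glycogen steps 7 fell, and UGP2 (-1.46), which makes UDP-glucose for glycogen, had the smallest p-value. The 5 that rose were ADPGK (0.63), an ADP-dependent glucokinase, ENO3 (0.65), PGAM5 (0.54), SLC2A8 (0.51) and TIGAR (0.45). PGAM5 was listed by its name, but it is known as a mitochondrial protein phosphatase and not as a glycolytic enzyme. Of 30 genes of pyruvate dehydrogenase and the tricarboxylic acid cycle 9 rose and 8 fell (median 0.03), with OGDH lower (-0.78) and IDH3B higher (0.72) at the smallest p-values. With the shRNF20 libraries added up as 1 sample, 2 genes of that list rose and 3 fell, and 2 rose and 2 fell among the further glycolysis and glycogen genes.

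Of 38 further HIF targets 15 fell and 6 rose, beside 58.4% called over all genes, with a median of -0.13, and with the shRNF20 libraries added up as 1 sample 9 fell and 1 rose. STC1, a secreted glycoprotein, had 63.3, 61.7 and 63.4 CPM in shRNF20, against 307, 341 and 257 CPM in shControl (-2.26, SE 0.11, edgeR adjusted p = 5.03e-06). AK4, a mitochondrial adenylate kinase, fell as well (-1.16, SE 0.09, edgeR adjusted p = 2.28e-05). Of 10 tested angiogenic ligands, receptors and inhibitors 5 fell and 0 rose at the adjusted threshold (edgeR), while 2 rose at an unadjusted p under 0.05, and DESeq2 gave the same counts. Those that fell were the VEGF coreceptors NRP1 (-1.56, SE 0.06, edgeR adjusted p = 3.71e-06) and NRP2 (-1.64), the adrenomedullin receptor partner RAMP1 (-1.83), VEGFB (-0.39) and ANGPTL2 (-1.70). With the shRNF20 libraries added up as 1 sample, 3 of the list fell. NRP1 had 98.2, 96.6 and 99.2 CPM in shRNF20, against 285, 297 and 284 CPM in shControl. The CALCRL receptor that ADM acts through was at 0.155 ± 0.11 CPM in shRNF20 and 0.201 ± 0.12 CPM in shControl (SD, n = 3 each), below the level tested.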

How the data were processed

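The submitters' processing notes name FastQC 0.12.1, STAR 2.7.11a and hg38. The annotation release is not given in the sources used here. For each library the authors deposited raw read counts per gene, without strand and for each strand. Counts without strand were used, because the strand columns were near equal (50.1% to 50.2% in 1 of them). Reads over exons of more than 1 gene (10.7% to 11.2%) are unassigned in them. Lines naming no gene (20.9% to 24.1% of reads) were left out. Positions, exon lengths and overlaps came from GENCODE 29 (GRCh38), which may not be the authors' release.

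In R 4.3.3, edgeR 4.0.16 filtered genes (filterByExpr, minimum count 10), applied TMM scaling and compared shRNF20 with shControl by the robust quasi-likelihood F-test, with Benjamini-Hochberg adjustment over all genes tested. The standard error is the log2 fold change over the root of F. The procedure was tested on simulated data. The members and lists were chosen with earlier results of these data known. Values in every library are given for called members with a log2 fold change of at least 0.5 in size and for HIF1A, EPAS1, ARNT and RNF20; of other lists, the 2 genes with the smallest p and those that moved 1 way where 5 or fewer did. Others named (the VHL ligase subunits, PGD, HKDC1, PDK2, PDK4, CALCRL and members that did not pass) were chosen after their values were seen. The alternatives tried were upper quartile and RLE scaling, DESeq2 1.42.0, no filter or a CPM of at least 1 in 3 libraries, a replicate block, leaving out mitochondrial genes, summing the shRNF20 libraries, and each library left out in turn. The sum of the strand columns was added after seeing the data.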

Additional observations from a re-analysis of the deposited data

How the results depend on the processing

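None of the 29 called members changed sign under the 15 alternatives (CA9, which was not called, had no value with a CPM of at least 1 in 3 libraries). The sign of 6 members that did not pass turned. With a library left out ALDOC lay between -0.344 and 0.308, GAPDH between -0.143 and 0.0078, PDK1 between -0.169 and 0.0443, EGLN3 between -0.117 and 0.203, LDHA between -0.0582 and 0.0646 and BNIP3 between -0.0713 and 0.0927. ALDOC also turned with the replicate block (0.0289). LDHA and BNIP3 turned with no filter on low counts (-0.0351 and -0.0401) and without mitochondrial genes (-0.0031 and -0.0085). Of the 29 members called, 13 passed under all of them, 11 were lost only on adding up the 3 shRNF20 libraries as 1 sample, and 5 (PFKM, PFKFB4, ENO1, LDHB and NDRG1) under more. With that sum, which leaves fewer samples, 1753 genes were higher and 1619 lower over all genes tested. Members numbered 5 higher and 8 lower, glycolysis members 2 and 4, HIF subunit and sensor members 1 and 0, other HIF targets 0 and 0, and pyruvate, lactate and pH members 0 higher. At an unadjusted p under 0.05 edgeR gave there 1 other HIF target higher and 1 lower, 0 HIF subunit and sensor members lower and 0 pyruvate, lactate and pH members higher; DESeq2 was not run on that sum. With no filter on low counts 5 pyruvate, lactate and pH members and 2 HIF subunit and sensor members were lower; the cause was not tested. With a library left out, 11 to 13 members were higher and 13 to 18 lower. HIF subunit and sensor members lower numbered 1 to 2, and pyruvate, lactate and pH members higher 0 to 1. Same-numbered libraries did not deviate together (correlations -0.02, 0.04 and 0.03, and not every library correlated best with its own number). The replicate number as a block gave 13 members higher and 15 lower, without ENO1 (-0.22, adjusted p = 0.0565). The members with the fewest reads (ALDOA, LDHB, CA9, SLC16A1, ALDOC and ANKRD37) are the least precise, and 3 libraries a group limit all comparisons.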
